A study of Mus musculus with 24 samples.

Results

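Myelin and oligodendrocyte lineage genes were followed as a set of 31 named genes, chosen by symbol through their Ensembl identifiers, out of 55487 identifiers in the count tables. The mice were wild type, and had either lost their olfactory bulbs to surgery (olfactory bulbectomy) or undergone a sham operation. There were 4 bulbectomy and 5 sham libraries of hippocampus, 3 bulbectomy and 5 sham libraries of cortex, and 2 bulbectomy and 5 sham libraries of cerebellum. The sources used here state no strain, age or time after surgery. Each library held polyA RNA of a whole tissue piece, so that fewer cells of a type and less RNA per cell cannot be told apart. Nothing in the labels says whether same-numbered libraries of different tissues came from the same animal, nor that libraries of a group came from separate animals, so that p-values measure the spread between these libraries, which may be technical.

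Oligodendrocytes wrap axons of the central nervous system in myelin, a stack of compacted membrane that speeds conduction and supports the axon. They arise from precursor cells that carry the receptor Pdgfra and the proteoglycan Cspg4, persist in the adult brain, pass through a committed stage marked by Gpr17, and then switch on the genes of the myelin sheath under transcription factors such as Sox10 and Myrf. White matter tracts hold many mature oligodendrocytes, whereas precursors are spread through grey and white matter alike.

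All 31 members passed the filter on low counts in each comparison, and the lowest value of any member in any library was 10 reads, for Lhfpl3 in a cortex bulbectomy library. Reads assigned to genes numbered 3255661 in hippocampus sham 1, 138963332 in hippocampus sham 4 and 8145624 to 20230673 in the other libraries. Mean log2 CPM of Purkinje cell markers was 7.84 to 8.15 in bulbectomy cerebellum, 7.82 to 8.27 in sham cerebellum and 3.24 to 4.22 in the other tissues. Cortical layer markers were at 4.99 to 5.299 in bulbectomy cortex, 5.07 to 5.31 in sham cortex and 1.89 to 4.50 in the other tissues. Hippocampal CA pyramidal markers were at 4.22 to 4.45 in bulbectomy hippocampus, 3.35 to 4.51 in sham hippocampus and 1.36 to 3.42 in the other tissues. Dentate gyrus granule cell markers were at 3.36 to 3.59 in bulbectomy hippocampus, 2.22 to 4.04 in sham hippocampus and 1.54 to 2.42 in the other tissues. The lowest sham hippocampus value thus lay within the range of cortex, and its bearing on the members' values was not tested. Several libraries stood apart. Hippocampus sham 1 and 2 had a mean log2 CPM of 7.28 and 7.52 over 15 striatal neuron markers, where the remaining hippocampus libraries had 3.77 to 4.30. In cerebellum sham 1 the members of low GC content were high and those of high GC content low, as described further on. Levels are given as CPM, counts relative to the library's total with TMM scaling over all 24 libraries, or as RPKM, which divides CPM by exon length in kilobases. Log2 fold changes, given with their standard error, come from each comparison's own scaling. Genes were said to rise, fall or pass where edgeR's quasi-likelihood test gave an adjusted p under 0.05 over all genes tested. Exons of 10 members overlap an exon on the opposite strand, over 1.85% to 18.6% of their length, and such reads are uncertain because the strand setting of the counting is not stated.

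Per length of exon, the most abundant members in sham tissue were Mbp, Trf and Plekhb1. Mbp encodes myelin basic protein, which holds the cytoplasmic faces of the membrane together, and lies at chromosome 18, 82475146 to 82585637 (GRCm38). Its level was 312 ± 24.8 RPKM in sham cerebellum, 397 ± 85.2 RPKM in sham hippocampus and 129.6 ± 20.2 RPKM in sham cortex (SD, n = 5 each). Trf, the iron carrier transferrin, had 379.8 ± 120.4, 305 ± 94.9 and 116 ± 19.03 RPKM in the same order of tissues, but 63.5% of its exon bases also belong to the predicted gene Gm20425 on the same strand, so its value is uncertain. Plekhb1, a membrane-binding protein with a pleckstrin homology domain, had 281 ± 80.004, 225 ± 56.8 and 112 ± 12.3 RPKM. At the other end, Enpp6, a choline phosphodiesterase of newly formed oligodendrocytes, had 0.869 ± 0.155, 0.739 ± 0.289 and 0.296 ± 0.0444 RPKM. Summed over the 31 members, CPM averaged 9039.8 ± 739 in bulbectomy and 7974 ± 1541 in sham hippocampus, 3812 ± 854 in bulbectomy and 3174 ± 329.7 in sham cortex, and 7548 ± 373 in bulbectomy and 7439 ± 1103 in sham cerebellum (SD over libraries).

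**Figure D1:**
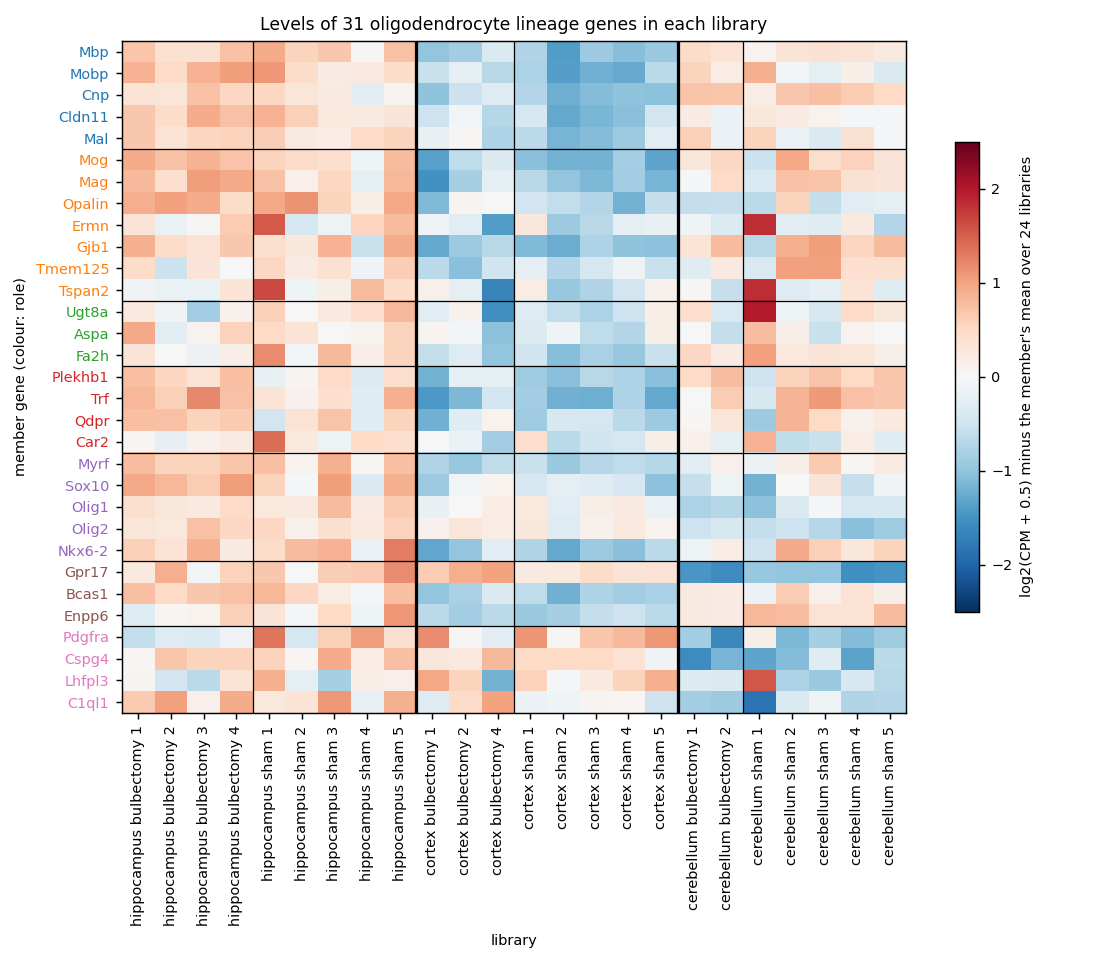
Heat map of the 31 members (rows, coloured and grouped by role) in the 24 libraries (columns, bulbectomy left of sham in each tissue). Colour is log2(CPM + 0.5) minus the member's mean over all libraries; most myelin genes are below their mean in cortex, Gpr17 and Cspg4 are below theirs in cerebellum, and cerebellum sham 1 departs from its neighbours at Ermn, Tspan2, Ugt8a and Lhfpl3.

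Sham tissues were compared to see how the lineage is distributed between brain regions. In cerebellum over cortex, 18 of the 31 members rose and 5 fell, where 17.9% of all genes tested rose and 16.8% fell. The median log2 fold change was 0.83 over the members and 0.057 over all genes. The members that rose included all 5 genes of compact and structural myelin along with Myrf, Nkx6-2, Bcas1 and Enpp6. Those that fell were the precursor genes Pdgfra and Cspg4, the committed precursor gene Gpr17, and the transcription factors Olig1 and Olig2. The libraries did not overlap for 17 members, 14 of them higher and 3 lower in cerebellum, where 13.7% and 11.9% of all genes did so. Without cerebellum sham 1, 17 members rose and 6 fell, while calls over all 15419 genes then tested came to 3793 higher and 3950 lower. Microglia markers moved as well: their mean log2 CPM was 3.85 to 4.88 in sham cerebellum, 5.33 to 6.39 in sham hippocampus and 5.57 to 6.19 in sham cortex, and 12 of 12 fell in cerebellum over cortex. Astrocyte markers were at 7.57 to 7.97 in sham cerebellum, 7.12 to 7.53 in sham hippocampus and 7.24 to 7.53 in sham cortex, and 6 of 12 rose and 2 fell in cerebellum over cortex. Pan-neuronal markers were at 8.09 to 8.56, 8.04 to 8.62 and 8.44 to 9.01 in the same order of tissues. The part of tissue composition in the members' values was not tested.

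All 5 genes of compact and structural myelin rose in cerebellum over cortex. Mbp had 2316, 2729, 2844, 2773 and 2569.8 CPM in cerebellum, 4195, 3227, 3517, 2236 and 3644 CPM in hippocampus and 1293, 834, 1167, 1046 and 1148 CPM in cortex in sham libraries. Every sham cerebellum library lay above every sham cortex library for Mbp (log2 fold change 1.18 ± 0.17, adjusted p = 4.44e-05). Mobp, a basic protein of compact myelin at chromosome 9, 120149707 to 120181484, had 432, 222, 197, 259.5 and 182 CPM in cerebellum, 496, 321, 269, 278 and 319.9 CPM in hippocampus and 136, 90.1, 101, 98.1 and 147 CPM in cortex (1.10 ± 0.25, adjusted p = 0.00301). Its sham cerebellum and sham cortex libraries did not overlap, while cerebellum and hippocampus did. Cnp, a phosphodiesterase of the cytoplasmic channels of myelin, rose by 1.48 (adjusted p = 2.73e-06), Cldn11, the tight junction claudin of the sheath, by 0.86 (adjusted p = 0.00241) and Mal, a lipid raft protein, by 0.83 (adjusted p = 0.00621).

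Of the 7 surface and periaxonal genes, 4 rose in cerebellum over cortex. Mog, a glycoprotein of the outermost lamella at chromosome 17, 37010743 to 37023398, had 51.3, 145, 102, 111 and 92.8 CPM in cerebellum, 109.7, 104, 99.4, 69.1 and 128 CPM in hippocampus and 36.01, 32.7, 32.5, 40.8 and 29.5 CPM in cortex (1.46 ± 0.23, adjusted p = 8.83e-05). The sham cerebellum libraries all exceeded the sham cortex libraries, the lowest being cerebellum sham 1. Gjb1, a connexin that couples layers of myelin, was among the 4 members of largest change, with 19.1, 58.1, 64.6, 45.2 and 53.8 CPM in cerebellum, 41.3, 37.7, 57.004, 21.04 and 59.5 CPM in hippocampus and 14.2, 12.8, 17.9, 15.2 and 14.9 CPM in cortex (1.59 ± 0.29, adjusted p = 0.000434). The lowest sham cerebellum library for Gjb1, sham 1, still exceeded every sham cortex library. Mag, an adhesion protein facing the axon, and Tmem125, a transmembrane protein, also rose, by 1.28 and 0.95 (adjusted p = 0.000272 and 0.00759). Opalin, a sialylated membrane glycoprotein, had 6.95, 17.1, 7.36, 9.35 and 9.78 CPM in cerebellum, 22.99, 25.6, 16.97, 12.8 and 22.8 CPM in hippocampus and 8.13, 7.26, 6.66, 4.77 and 7.44 CPM in cortex (0.47 ± 0.27, adjusted p = 0.186), and cerebellum overlapped cortex. Ermn, a cytoskeletal protein, had 0.76 ± 0.50, adjusted p = 0.265 and Tspan2, a tetraspanin, 0.80 ± 0.45, adjusted p = 0.189, and both were far higher in cerebellum sham 1 than in any other sham cerebellum library.

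Among genes of lipid metabolism, Fa2h, which hydroxylates fatty acids of myelin lipids, rose by 1.18 ± 0.25 (adjusted p = 0.00163). Ugt8a, which makes galactosylceramide, rose by 1.08 ± 0.40 (adjusted p = 0.0461), a call that held in 11 of 24 alternatives. The Ugt8a call was lost without cerebellum sham 1 (log2 fold change 0.43, adjusted p = 0.167), without cerebellum sham 4, without any 1 of the hippocampus sham libraries, without cortex sham 1, 2, 3 or 4, and with no filter on low counts. Aspa, which cleaves N-acetylaspartate, had 9.01, 5.73, 3.31, 5.44 and 5.04 CPM in cerebellum, 7.37, 6.58, 5.02, 5.41 and 7.87 CPM in hippocampus and 3.91, 4.67, 3.08, 2.88 and 5.73 CPM in cortex (0.41 ± 0.28, adjusted p = 0.285), and the tissues overlapped. Of the 4 genes of metabolism and transport, 3 rose. Trf had 602, 1438, 1674, 1321 and 1271 CPM in cerebellum, 1007, 857, 1059.6, 647 and 1499.8 CPM in hippocampus and 435, 345, 342, 468 and 329 CPM in cortex (1.62 ± 0.25, adjusted p = 8.47e-05), every sham cerebellum library exceeding every sham cortex library. Plekhb1 rose by 1.24 (adjusted p = 0.000233), and Qdpr, a reductase that restores tetrahydrobiopterin, by 0.82 (adjusted p = 0.028). The Qdpr call was lost without cerebellum sham 2 or 3 and without cortex sham 1, 4 or 5, with an adjusted p of up to 0.0887. Car2, a carbonic anhydrase, had 109, 38.2, 39.9, 67.3 and 47.6 CPM in cerebellum, 157, 71.6, 54.6, 84.2 and 79.9 CPM in hippocampus and 80.3, 36.96, 42.1, 44.05 and 65.3 CPM in cortex (0.093 ± 0.34, adjusted p = 0.868), and the tissues overlapped. Mean log2 CPM over 12 choroid plexus markers, a tissue that also makes transferrin, was 0.62 to 4.46 in sham cerebellum, 1.32 to 4.51 in sham hippocampus and -0.021 to 0.51 in sham cortex; its part in the Trf difference was not tested.

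Transcription factors of the lineage split. Myrf, which directly activates myelin genes, and Nkx6-2, a homeodomain factor of mature oligodendrocytes, rose in cerebellum over cortex by 0.83 and 1.34 (adjusted p = 0.00196 and 0.00127). Olig2, a basic helix-loop-helix factor that specifies the lineage and lies at chromosome 16, 91225457 to 91228677, had 11.8, 12.6, 10.9, 8.55 and 9.55 CPM in cerebellum, 26.2, 19.8, 24.02, 21.5 and 27.3 CPM in hippocampus and 22.3, 14.5, 19.6, 21.7 and 19.4 CPM in cortex, and no sham cerebellum library reached the lowest sham cortex library (-0.95 ± 0.17, adjusted p = 0.000299). Its neighbour and relative Olig1 fell by 0.57 on the log2 scale (adjusted p = 0.0187; 0.0531 without cortex sham 1). Sox10, which acts at all stages of the lineage, had 28.8, 65.3, 81.6, 44.1 and 61.7 CPM in cerebellum, 96.98, 63.5, 135, 50.6 and 121 CPM in hippocampus and 48.9, 54.99, 52.7, 48.9 and 31.998 CPM in cortex (0.15 ± 0.28, adjusted p = 0.726), and the tissues overlapped.

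Of the 4 precursor genes, 2 fell in cerebellum over cortex. Pdgfra, the receptor for platelet-derived growth factor at chromosome 5, 75152292 to 75198215, had 17.9, 7.21, 8.92, 7.46 and 8.57 CPM in cerebellum, 42.2, 11.9, 24.7, 34.1 and 21.7 CPM in hippocampus and 35.4, 16.7, 26.8, 28.8 and 34.9 CPM in cortex (-1.59 ± 0.34, adjusted p = 0.0015). Cerebellum sham 1 was the single sham cerebellum library that reached into the sham cortex range, and without it the log2 fold change was -1.90 (adjusted p = 4.39e-05). Cspg4, a proteoglycan of precursors that pericytes also carry, fell by 1.39 on the log2 scale (adjusted p = 0.000143). Gpr17, a receptor of committed precursors at chromosome 18, 31942997 to 31949636, had 9.85, 9.64, 9.61, 6.38 and 6.66 CPM in cerebellum, 31.5, 19.5, 30.1, 30.95 and 44.5 CPM in hippocampus and 22.9, 23.1, 26.8, 24.5 and 25.2 CPM in cortex, and every sham cerebellum library lay below every sham cortex library (-1.63 ± 0.20, adjusted p = 7.33e-06). Bcas1, a marker of early myelinating cells, and Enpp6, of newly formed oligodendrocytes, went the opposite way. They rose by 1.01 and 1.46 (adjusted p = 0.000632 and 0.000402). C1ql1, a secreted C1q-like protein, and Lhfpl3, a tetraspan protein of precursors, had log2 fold changes of -0.64 and -0.49 without passing (adjusted p = 0.0874 and 0.518). Over 10 meningeal fibroblast genes, cells that also carry Pdgfra, mean log2 CPM was 3.08 to 3.43 in sham cerebellum and 2.82 to 3.22 in sham cortex, and over 12 endothelial and mural genes 4.44 to 4.68 in sham cerebellum and 4.39 to 4.84 in sham cortex. The part of these cells in the Pdgfra and Cspg4 values was not tested.

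In hippocampus over cortex, 16 of the 31 members rose and 0 fell, where 2.09% of all genes tested rose and 1.21% fell. The median log2 fold change was 1.03 over the members and 0.019 over all genes. The libraries did not overlap for 17 members, all higher in hippocampus, where 3.27% of all genes did so. All 5 genes of compact and structural myelin rose, led by Mbp (1.60 ± 0.17, adjusted p = 0.000224) and Mobp (1.54 ± 0.26, adjusted p = 0.00402). Mog (1.55 ± 0.23, adjusted p = 0.00183), Mag, Opalin and Gjb1 rose as well, as did Myrf, Nkx6-2 (1.69 ± 0.28, adjusted p = 0.00402), Fa2h, Plekhb1, Trf, Bcas1 and Enpp6. Opalin rose by 1.54 ± 0.27 (adjusted p = 0.00556). The 31 log2 fold changes ran from -0.44 for Lhfpl3 to 1.69 for Nkx6-2. The 4 precursor genes did not pass: Pdgfra had a log2 fold change of -0.11 ± 0.33, adjusted p = 0.938, Cspg4 of 0.14 ± 0.22, adjusted p = 0.866, C1ql1 of 0.65 ± 0.28, adjusted p = 0.298 and Lhfpl3 of -0.44 ± 0.54, adjusted p = 0.817. Gpr17 had 0.33 ± 0.19, adjusted p = 0.529. Without hippocampus sham 1 and 2, the libraries with striatal markers, 16 members rose and 0 fell, where 286 of all 15752 genes rose and 188 fell. The Plekhb1 call was lost without hippocampus sham 5 or cortex sham 2, with an adjusted p of up to 0.0535, and the Fa2h call after removing the length and GC trend (adjusted p = 0.0537).

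In cerebellum over hippocampus, 8 of the 31 members fell and 0 rose, where 15.5% of all genes tested fell and 12.9% rose. The median log2 fold change was -0.31 over the members and 0.049 over all genes. The libraries did not overlap for 4 members, Gpr17, Cspg4, Olig2 and Olig1, all lower, where 8.85% of all genes were lower and 9.25% higher without overlap. The 3 comparisons share libraries, so their values are given side by side and are no separate evidence. Gpr17 fell by 1.96 on the log2 scale (adjusted p = 1.3e-06), Cspg4 by 1.52 (adjusted p = 7.34e-05), Pdgfra by 1.48 (adjusted p = 0.00316) and C1ql1 by 1.29 (adjusted p = 0.00229). Olig2, Olig1, Sox10 and Opalin fell by 1.22, 0.95, 0.79 and 1.06 (adjusted p = 3.59e-05, 0.00063, 0.0434 and 0.0061). No gene of compact and structural myelin passed. Mbp had -0.41 ± 0.17, adjusted p = 0.0816 and its 95% interval ran from -0.77 to -0.054. With the replicate number as a block 11 members fell, Car2, Cldn11 and Mobp besides these 8. Over all 15142 genes the block called 2395 higher and 2909 lower, against 1953 and 2343 in the main fit. Without cerebellum sham 1, 11 members fell and Plekhb1 rose, while Sox10 no longer passed. Calls over all 15419 genes then came to 2672 higher and 3355 lower. Without hippocampus sham 1 and 2, 6 members fell, Opalin and Sox10 no longer passing. Of all 15752 genes, 1691 then rose and 2027 fell. The Sox10 call held in 10 of 25 alternatives, and was also lost without cerebellum sham 2, 4 or 5, without hippocampus sham 1, 3 or 5 and without cortex sham 1, 2, 3 or 4.

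**Figure D2:**
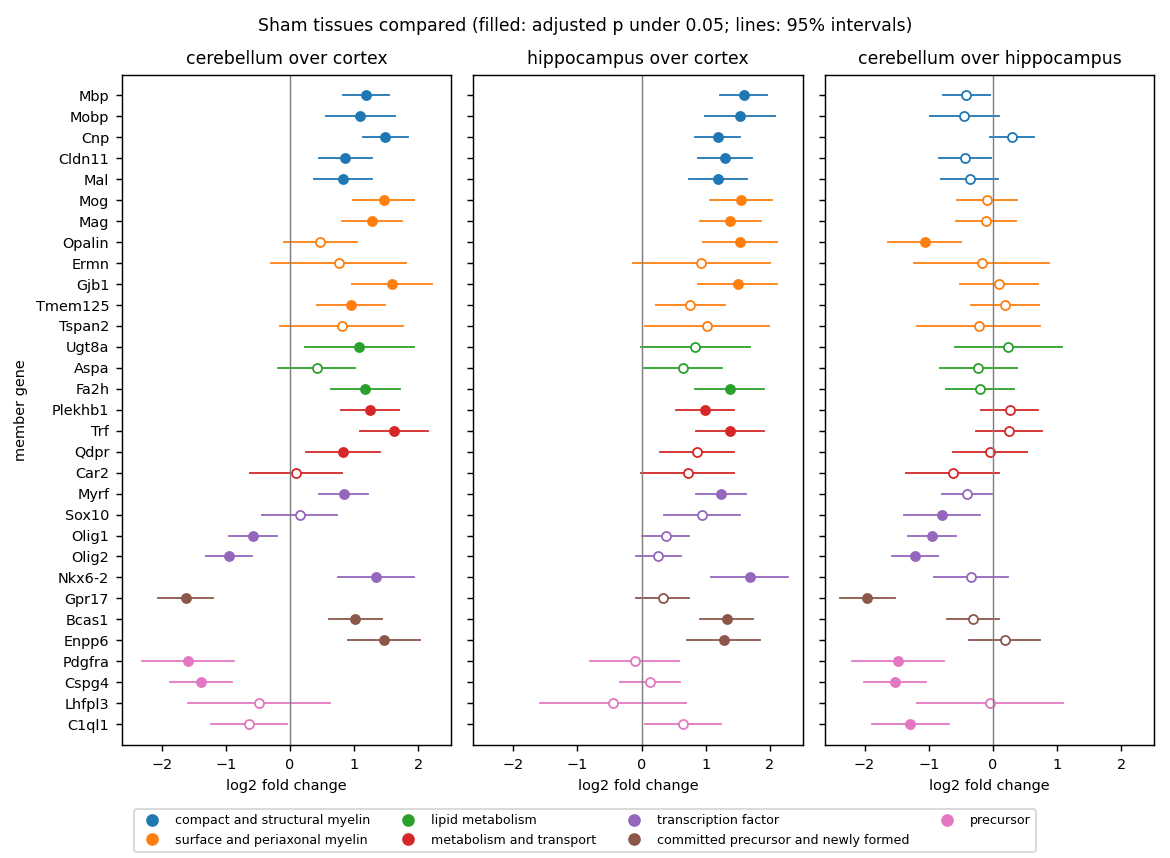
Log2 fold changes of the 31 members (rows, coloured by role) between sham tissues, with 95% intervals; filled points passed at an adjusted p under 0.05. The genes of compact and structural myelin lie right of 0 against cortex in both other tissues. Gpr17, Cspg4, Pdgfra and Olig2 lie left of 0 in cerebellum against both other tissues.

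Within each library, the mean log2 CPM of the 4 precursor genes was subtracted from that of the 5 compact and structural myelin genes. This summary, chosen after the values were seen, was highest in cerebellum and lowest in cortex among sham libraries. It was 5.39 to 5.61 in bulbectomy and 4.86 to 5.38 in sham cerebellum, 4.36 to 4.96 in bulbectomy and 4.03 to 4.69 in sham hippocampus, and 3.02 to 3.53 in bulbectomy and 2.69 to 3.18 in sham cortex. The sham tissues did not overlap, but hippocampus bulbectomy 3 lay above the lowest sham cerebellum libraries. Bulbectomy and sham libraries overlapped in hippocampus and cortex, and in cerebellum the lowest bulbectomy value lay just above the highest sham value. No test was made on this summary.

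Promoter windows of the members were searched, from 250 bases before to 50 bases after the start of the gene, as RefSeq gives them on GRCm38.p6. The counts take in every member with a window, whichever way it moved between tissues. Aspa, Tspan2 and Lhfpl3, which passed in no sham comparison, are among those with a match. Windows were found for 21 of the 31 members. The letters searched on both strands were ACAAAG and AACAAT, which SOX factors can bind, and the E-box CAGCTG, which OLIG factors can bind. ACAAAG was found for 7 of the 21 members with a window (9 of their 28 windows) against 18.7% of 32851 windows. AACAAT was found for 4 of the 21 members with a window (4 of their 28 windows) against 10.7% of 32851 windows. CAGCTG was found for 3 of the 21 members with a window (3 of their 28 windows) against 16.3% of 32851 windows. The windows of 2 myelin genes that rose in cerebellum and hippocampus over cortex and of 2 genes that fell in cerebellum over both are shown, 5′ to 3′, with matches to these letters or their reverse complements in capitals: Mog at chr17:37023349-37023648 on the minus strand, Mobp at chr9:120149492-120149791 on the plus strand, Olig2 at chr16:91225300-91225599 on the plus strand and Pdgfra at chr5:75152001-75152300 on the plus strand.
Mog: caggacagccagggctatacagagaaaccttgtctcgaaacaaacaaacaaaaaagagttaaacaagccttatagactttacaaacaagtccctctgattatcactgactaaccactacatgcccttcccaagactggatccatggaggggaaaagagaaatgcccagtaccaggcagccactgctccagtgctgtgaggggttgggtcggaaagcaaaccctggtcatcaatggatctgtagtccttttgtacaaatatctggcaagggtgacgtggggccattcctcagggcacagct
Mobp: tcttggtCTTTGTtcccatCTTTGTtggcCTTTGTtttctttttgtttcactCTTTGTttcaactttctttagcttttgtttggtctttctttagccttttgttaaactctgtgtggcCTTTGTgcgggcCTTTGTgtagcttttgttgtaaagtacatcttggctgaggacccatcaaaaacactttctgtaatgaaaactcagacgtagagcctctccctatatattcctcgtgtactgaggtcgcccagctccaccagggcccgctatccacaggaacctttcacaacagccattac
Olig2: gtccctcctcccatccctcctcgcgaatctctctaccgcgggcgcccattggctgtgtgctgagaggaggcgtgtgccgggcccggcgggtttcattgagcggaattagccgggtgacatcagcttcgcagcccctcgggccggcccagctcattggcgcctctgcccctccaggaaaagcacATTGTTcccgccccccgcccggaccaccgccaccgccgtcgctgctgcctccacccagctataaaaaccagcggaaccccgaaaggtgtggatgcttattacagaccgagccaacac
Pdgfra: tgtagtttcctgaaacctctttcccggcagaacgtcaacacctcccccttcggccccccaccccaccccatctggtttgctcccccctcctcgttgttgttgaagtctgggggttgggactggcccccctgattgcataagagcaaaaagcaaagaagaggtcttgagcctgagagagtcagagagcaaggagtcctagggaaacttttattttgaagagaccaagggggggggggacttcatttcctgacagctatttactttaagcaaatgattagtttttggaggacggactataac
Mobp holds 6 matches to ACAAAG, all on the other strand, and Olig2 holds 1 match to AACAAT on the other strand, while the windows of Mog and Pdgfra hold 0 matches to the 3 motifs. A match describes letters and no site.

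In hippocampus, bulbectomy over sham, 0 of the 31 members passed in edgeR's test, where 1.55% of all genes tested did. Unadjusted p lay under 0.05 for 5 members, against 20% of all genes. DESeq2 called 1 member and voom 0, where they called 954 and 307 of all 13985 genes. The median log2 fold change was 0.13 over the members and 0.018 over all genes, with 17 members above 0 and 14 below, where 51.6% of all genes lay above 0. The member median turned to -0.049 without hippocampus sham 4, with 14 members above 0 and 17 below, and was 0.0049 without sham 3. The 31 log2 fold changes ran from -1.02 for Pdgfra to 0.54 for Trf. Above 0 were 4 of 5 compact and structural myelin genes, 3 of 4 of metabolism and transport and 1 of 4 precursor genes. The libraries overlapped for all 31 members, where 9.47% of all genes did not overlap.

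Pdgfra had the smallest p. Its level was 10.4, 12.8, 12.8 and 15.4 CPM in the bulbectomy libraries, against 42.2, 11.9, 24.7, 34.1 and 21.7 CPM in the sham libraries. The bulbectomy libraries clustered low and the sham libraries were spread, sham 2 lying among the bulbectomy values. Its log2 fold change was -1.02 ± 0.29, adjusted p = 0.0881 with a 95% interval of -1.65 to -0.39. DESeq2 called it lower (log2 fold change -1.04, adjusted p = 0.0236), as did edgeR without sham 2 (-1.21, adjusted p = 0.0188) and without sham 1 and 2 (-1.03, adjusted p = 0.0214); over the alternatives adjusted p ran from 0.0188 to 0.22. Over all genes DESeq2 called 954, and edgeR 477 without sham 2 and 348 without sham 1 and 2, against 217 in the main fit. After removing the trend over length and GC, the log2 fold change of Pdgfra was -0.75 (adjusted p = 0.103). The other precursor genes lay closer to 0: Cspg4 had -0.020 ± 0.21, adjusted p = 0.967, C1ql1 0.21 ± 0.25, adjusted p = 0.666 and Lhfpl3 -0.23 ± 0.41, adjusted p = 0.779. Mean log2 CPM over the fibroblast genes was 2.47 to 2.74 in the bulbectomy and 1.96 to 3.08 in the sham libraries, and their part in the Pdgfra values was not tested.

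Plekhb1 had 1288, 1112, 984 and 1288 CPM in the bulbectomy libraries, against 667, 804, 1066, 601 and 1036 CPM in the sham libraries (0.51 ± 0.20, adjusted p = 0.171). Trf had 1412, 1204, 1836 and 1330.2 CPM in the bulbectomy libraries, against 1007, 857, 1059.6, 647 and 1499.8 CPM in the sham libraries (0.54 ± 0.23, adjusted p = 0.209). For Plekhb1, 3 of the 4 bulbectomy libraries exceeded every sham library, and for Trf 1 did, and the groups overlapped in both. Tspan2 had 16.3, 15.3, 15.5 and 22.02 CPM in the bulbectomy libraries, against 55.1, 16.1, 19.4, 30.2 and 23.9 CPM in the sham libraries (-0.69 ± 0.31, adjusted p = 0.232), with hippocampus sham 1 the highest. Among the myelin genes, Mog had 141, 124, 136 and 122 CPM in the bulbectomy libraries, against 109.7, 104, 99.4, 69.1 and 128 CPM in the sham libraries (0.39 ± 0.18, adjusted p = 0.244). All 4 bulbectomy libraries exceeded the sham median for Mog. Mobp had 429, 328, 431 and 487 CPM in the bulbectomy libraries, against 496, 321, 269, 278 and 319.9 CPM in the sham libraries (0.35 ± 0.20, adjusted p = 0.358). Mbp had 3559, 2859, 2848 and 3658 CPM in the bulbectomy libraries, against 4195, 3227, 3517, 2236 and 3644 CPM in the sham libraries (-0.030 ± 0.20, adjusted p = 0.945). Bulbectomy values lay within the sham range for both. Gpr17 had 22.99, 36.95, 18.5 and 29.2 CPM in the bulbectomy libraries, against 31.5, 19.5, 30.1, 30.95 and 44.5 CPM in the sham libraries (-0.19 ± 0.24, adjusted p = 0.667), and its groups overlapped. Over 17 thalamus and habenula markers, mean log2 CPM was 3.78 to 4.57 in the bulbectomy and 2.36 to 3.60 in the sham hippocampus libraries. Of the 17 tested, 4 rose, where 77 of all 13985 genes tested did. The striatal markers were 3.97 to 4.30 in the bulbectomy and 3.77 to 7.52 in the sham libraries. Cerebellar granule cell markers were at 3.18 to 3.94 in the bulbectomy and 2.63 to 3.04 in the sham hippocampus libraries, which did not overlap. The part of neighbouring tissue in the members' values was not tested.

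In cortex, bulbectomy over sham, 0 of the 31 members passed in edgeR's test, where 0.0202% of all genes tested did; DESeq2 and voom also called 0. Unadjusted p lay under 0.05 for 3 members, against 5.91% of all genes. The median log2 fold change was 0.11 over the members and 0.0053 over all genes, with 21 members above 0 and 10 below. The 31 log2 fold changes ran from -0.35 for Tmem125 to 0.59 for C1ql1. The 5 compact and structural myelin genes had log2 fold changes of 0.26 to 0.53. All lay above 0, where 50.8% of all genes did.

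Gpr17 had 30.6, 36.8 and 39.8 CPM in the bulbectomy libraries, against 22.9, 23.1, 26.8, 24.5 and 25.2 CPM in the sham libraries (0.52 ± 0.16, adjusted p = 0.687, 95% interval 0.18 to 0.87). It was the 1 member whose groups did not overlap, where 3.59% of all genes did not. Mobp had 159.9, 196 and 145 CPM in the bulbectomy libraries, against 136, 90.1, 101, 98.1 and 147 CPM in the sham libraries (0.53 ± 0.20, adjusted p = 0.77), sham 5 just exceeding bulbectomy 4. C1ql1 had 20.4, 36.2 and 52.3 CPM in the bulbectomy libraries, against 23.1, 23.8, 27.3, 26.6 and 17.8 CPM in the sham libraries (0.59 ± 0.25, adjusted p = 0.787), bulbectomy 4 the highest and bulbectomy 1 within the sham range. Cnp had 221, 307 and 355 CPM in the bulbectomy libraries, against 269.6, 190.3, 211, 221 and 217 CPM in the sham libraries (0.39 ± 0.18, adjusted p = 0.844), bulbectomy 1 again within the sham range. Mbp had 1100.1, 1195 and 1709.6 CPM in the bulbectomy libraries, against 1293, 834, 1167, 1046 and 1148 CPM in the sham libraries (0.26 ± 0.19, adjusted p = 0.88). Mog had 28.9, 47.4 and 57.7 CPM in the bulbectomy libraries, against 36.01, 32.7, 32.5, 40.8 and 29.5 CPM in the sham libraries (0.35 ± 0.21, adjusted p = 0.86). Bulbectomy 4 was the highest library for both. Pdgfra had 37.7, 16.7 and 13.3 CPM in the bulbectomy libraries, against 35.4, 16.7, 26.8, 28.8 and 34.9 CPM in the sham libraries (-0.33 ± 0.35, adjusted p = 0.893), bulbectomy 1 the highest and bulbectomy 4 the lowest. Without cortex bulbectomy 1, which leaves 2 bulbectomy libraries, C1ql1 (0.86, adjusted p = 0.0382) and Plekhb1 (0.62, adjusted p = 0.0451) were called higher among 573 genes in all, against 3 with every library. Across the members, the deviation of cortex bulbectomy 1 from the other cortex libraries had a Pearson correlation of -0.59 with exon GC content, and that of bulbectomy 4 had 0.70, opposite in sign.

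In cerebellum, with 2 bulbectomy libraries, 0 of the 31 members passed in edgeR's test, where 0.0131% of all genes tested did. DESeq2 and voom also called 0. By edgeR, 0 members had an unadjusted p under 0.05, against 2.97% of all genes. The median log2 fold change was -0.24 over the members and -0.064 over all genes, with 6 members above 0 and 25 below, where 42.8% of all genes lay above 0. Above 0 were 4 of 5 compact and structural myelin genes, 0 of 7 surface and periaxonal genes and 0 of 4 precursor genes. The 31 log2 fold changes ran from -0.88 for Tspan2 to 0.27 for Olig2. Tspan2, Ermn and Ugt8a had the lowest values (-0.88 ± 0.74, -0.83 ± 0.81 and -0.74 ± 0.76). They are genes that cerebellum sham 1 holds high, and without that library they were -0.15, 0.0025 and -0.021. Without cerebellum sham 1, 10 members lay above 0 and 21 below. Unadjusted p by edgeR then lay under 0.05 for 5 members, against 1652 of all 15186 genes. With every library, voom gave 6 such members, against 2035 of all 15295 genes. Tmem125 had 7.45 and 10.99 CPM in the bulbectomy libraries, against 7.02, 19.5, 19.3, 12.7 and 12.5 CPM in the sham libraries (-0.62 ± 0.40, adjusted p = 1). Olig1 had 69.1 and 73.3 CPM in the bulbectomy libraries, against 59.01, 93.3, 116, 88.8 and 90.7 CPM in the sham libraries (-0.34 ± 0.22, adjusted p = 1). Cspg4 had 7.38 and 9.92 CPM in the bulbectomy libraries, against 8.85, 10.6, 18.3, 8.70 and 14.2 CPM in the sham libraries (-0.49 ± 0.35, adjusted p = 1). In these 3 genes 1 sham library or more lay within or below the bulbectomy values. Enpp6 had 4.08 and 4.03 CPM in the bulbectomy libraries, against 6.41, 6.16, 4.49, 4.49 and 6.31 CPM in the sham libraries (-0.48 ± 0.34, adjusted p = 1). Olig2 had 12.6 and 13.6 CPM in the bulbectomy libraries, against 11.8, 12.6, 10.9, 8.55 and 9.55 CPM in the sham libraries (0.27 ± 0.27, adjusted p = 1). They were the 2 members whose groups did not overlap, Enpp6 lower and Olig2, by a narrow margin, higher, where 10.9% of all genes did not overlap.

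Mbp had 3012 and 2791 CPM in the bulbectomy libraries, against 2316, 2729, 2844, 2773 and 2569.8 CPM in the sham libraries (0.12 ± 0.18, adjusted p = 1). Mobp had 344 and 265 CPM in the bulbectomy libraries, against 432, 222, 197, 259.5 and 182 CPM in the sham libraries (0.19 ± 0.40, adjusted p = 1). Mog had 91.1 and 107 CPM in the bulbectomy libraries, against 51.3, 145, 102, 111 and 92.8 CPM in the sham libraries (-0.023 ± 0.32, adjusted p = 1). The groups overlapped for these 3 genes. Pdgfra had 8.74 and 4.96 CPM in the bulbectomy libraries, against 17.9, 7.21, 8.92, 7.46 and 8.57 CPM in the sham libraries (-0.59 ± 0.51, adjusted p = 1). Gpr17 had 6.80 and 6.17 CPM in the bulbectomy libraries, against 9.85, 9.64, 9.61, 6.38 and 6.66 CPM in the sham libraries (-0.40 ± 0.33, adjusted p = 1). The groups overlapped for both. Mean log2 CPM over the fibroblast genes was 2.86 to 2.87 in the bulbectomy and 3.08 to 3.43 in the sham cerebellum libraries, and mitochondrial genes took 7.35% to 7.78% of assigned reads in the bulbectomy and 2.53% to 7.03% in the sham cerebellum libraries. Neither overlapped between the groups, and their part in the members' values was not tested. The intervals were wide: that of Pdgfra ran from -1.76 to 0.57 and that of Mog from -0.75 to 0.71.

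**Figure D3:**
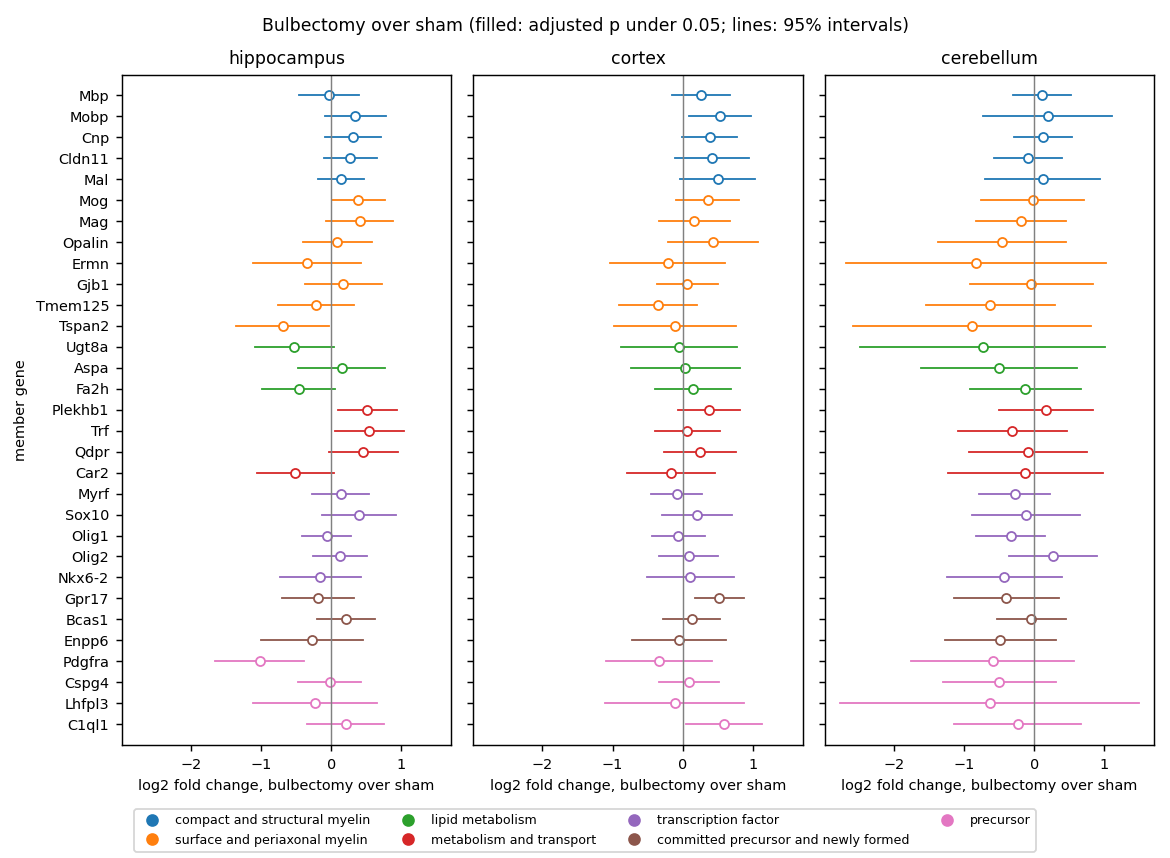
Log2 fold changes of the 31 members (rows, coloured by role), bulbectomy over sham, in hippocampus, cortex and cerebellum, with 95% intervals. No point is filled, since 0 members passed at an adjusted p under 0.05 in any tissue; Pdgfra in hippocampus lies farthest left there.

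**Figure D4:**
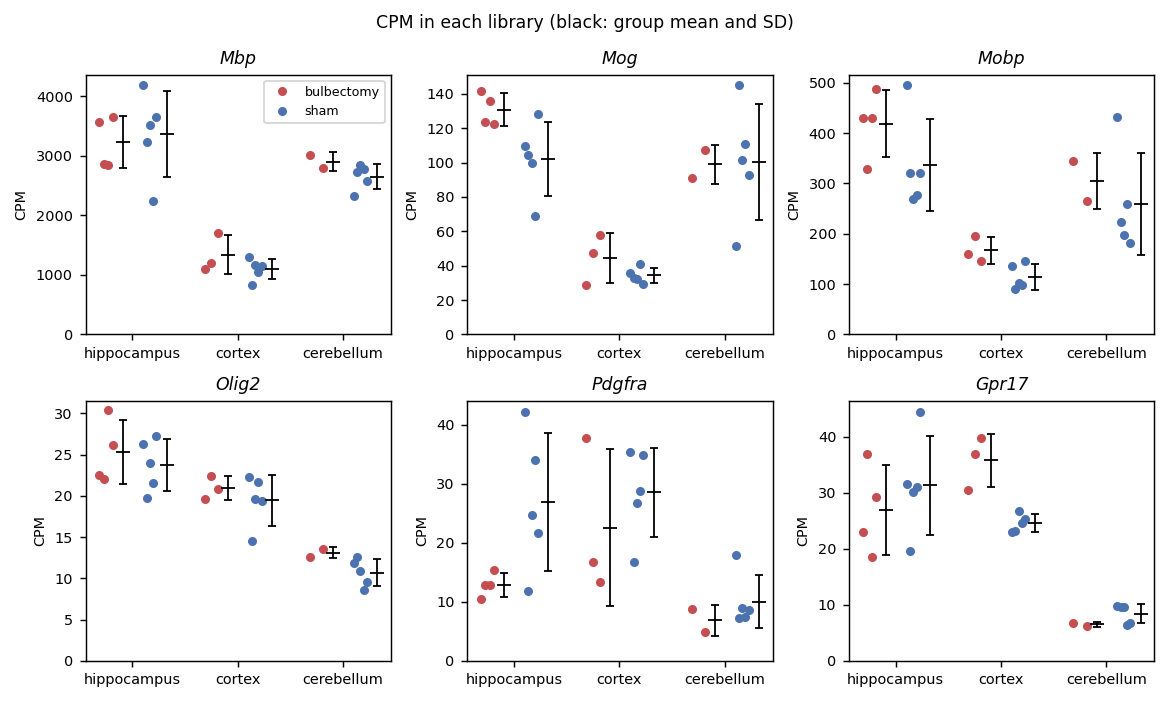
CPM of Mbp, Mog, Mobp, Olig2, Pdgfra and Gpr17 in each library, bulbectomy left of sham in each tissue, with the group mean and SD in black. The 3 cortex bulbectomy libraries lie above the cortex sham libraries for Gpr17, and the hippocampus sham libraries are widely spread for Pdgfra.

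Whether the bulbectomy effect differed between tissues was tested as an interaction over all 24 libraries. The share of all 16564 genes called by edgeR was 0% in each of the 3 contrasts, and 0 members were called in any; DESeq2 and voom called 0 members as well. Unadjusted p lay under 0.05 for Gpr17 alone in hippocampus minus cortex (-0.76 ± 0.31, adjusted p = 1) and in cortex minus cerebellum (0.92 ± 0.36, adjusted p = 1), and for 0 members in hippocampus minus cerebellum, against 2.81%, 1.67% and 3.09% of all genes. The contrasts share the bulbectomy effect of a tissue.

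A list of 48 other genes of the lineage, of which 46 were tested, gave the wider lineage. Differences are given as log2 fold change ± the approximate standard error, and p as adjusted by edgeR. In hippocampus, bulbectomy over sham, 1 of the 46 fell and 0 rose, where 1.55% of all genes passed. Ptprz1, a receptor phosphatase of precursors and astrocytes, was the gene that fell, with 39.04 ± 3.99 CPM in bulbectomy and 105 ± 35.8 CPM in sham hippocampus (SD; log2 fold change -1.40 ± 0.23, adjusted p = 0.0115), and the groups did not overlap. Its adjusted p was 0.00166 without hippocampus sham 1 and 2, and 0.0559 and 0.0562 without bulbectomy 2 or bulbectomy 4, which ended the call. Mean log2 CPM over 12 astrocyte markers was 7.49 to 7.67 in the bulbectomy and 7.12 to 7.53 in the sham hippocampus libraries, and their part in the Ptprz1 values was not tested. Xylt1, which starts proteoglycan chains, had -0.89 ± 0.22, adjusted p = 0.0566 and Tnr, tenascin R of the matrix, -0.65 ± 0.22, adjusted p = 0.132. On the higher side, Sept4, a septin, had 0.66 ± 0.20, adjusted p = 0.097, Tppp3, a tubulin-binding protein, 0.60 ± 0.19, adjusted p = 0.106 and Sirt2, a deacetylase, 0.43 ± 0.14, adjusted p = 0.117. DESeq2 called 4 of the 46, namely Ptprz1 and Xylt1 lower and Sept4 and Sirt2 higher, and voom called Ptprz1 and Sept4. Of all 13985 genes DESeq2 called 954 and voom 307. In cortex and cerebellum 0 of the 46 passed by edgeR and by DESeq2, with 4 and 2 at an unadjusted p under 0.05 by edgeR, where 5.91% and 2.97% of all genes had one. In cortex voom called Ptprz1 and Tppp3, as did edgeR without bulbectomy 1, and in cerebellum voom called 0. Over all genes voom called 252 in cortex and 67 in cerebellum, and edgeR without cortex bulbectomy 1 called 573. In cortex Tppp3 had 1.07 ± 0.26, adjusted p = 0.403, Apod, a lipocalin, 0.51 ± 0.16, adjusted p = 0.687 and Neu4, a sialidase, 0.55 ± 0.21, adjusted p = 0.77, while Ptprz1 had -0.81 ± 0.42, adjusted p = 0.844 and Gjc3, a connexin, -0.44 ± 0.30, adjusted p = 0.875. In cerebellum Sirt2 had 0.58 ± 0.18, adjusted p = 1, Carns1 0.52 ± 0.29, adjusted p = 1 and Cers2 0.29 ± 0.24, adjusted p = 1, and Gpr37, a receptor of oligodendrocytes, had -0.57 ± 0.17, adjusted p = 1, Ptprz1 -1.56 ± 0.73, adjusted p = 1 and Tnr -1.22 ± 0.70, adjusted p = 1. Without cerebellum sham 1 the cerebellum value of Ptprz1 was -0.85, and with the length and GC trend removed -0.97.

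Between sham tissues, 22 of these 46 genes rose and 5 fell in cerebellum over cortex, where 17.9% of all genes rose and 16.8% fell. In hippocampus over cortex 14 rose and 0 fell, where 2.09% of all genes rose and 1.21% fell. In cerebellum over hippocampus 7 rose and 6 fell, near the 12.9% of all genes that rose and the 15.5% that fell. Without cerebellum sham 1, 24 rose and 8 fell in cerebellum over cortex, while calls over all genes grew to 7743, against 5251 with every library. Without hippocampus sham 1 and 2, 12 rose and 0 fell in hippocampus over cortex, and 5 rose and 3 fell in cerebellum over hippocampus. Of all 15752 genes, 286 rose and 188 fell in the former, and 1691 rose and 2027 fell in the latter. The part of tissue composition, with cell types outside the lineage, in the values of these genes was not tested. In cerebellum over cortex Sept4 rose by 2.88 ± 0.22, adjusted p = 4.49e-08, Tppp3 by 2.36 ± 0.23, adjusted p = 4.96e-07 and Adamts4, a protease, by 1.89 ± 0.19, adjusted p = 7.12e-07; Xylt1, Tppp and Matn4 had -1.46 ± 0.33, adjusted p = 0.00223, -1.40 ± 0.41, adjusted p = 0.0147 and -0.78 ± 0.26, adjusted p = 0.0289. In hippocampus over cortex Gpr37 rose by 1.27 ± 0.16, adjusted p = 0.000874, Hapln2, a link protein of nodes, by 1.75 ± 0.25, adjusted p = 0.00153 and Adamts4 by 1.27 ± 0.19, adjusted p = 0.00183, whereas Bmp4, Sox6 and Zfp536 had -1.40 ± 0.38, adjusted p = 0.0524, -0.77 ± 0.39, adjusted p = 0.419 and -0.31 ± 0.24, adjusted p = 0.687 and did not pass. In cerebellum over hippocampus Sept4, Cntn2 and Tppp3 rose by 2.25 ± 0.22, adjusted p = 6.41e-07, 0.87 ± 0.16, adjusted p = 0.000567 and 1.03 ± 0.22, adjusted p = 0.00179, and Matn4, Xylt1 and Neu4 fell, with -1.13 ± 0.26, adjusted p = 0.00367, -1.16 ± 0.33, adjusted p = 0.0124 and -0.999 ± 0.28, adjusted p = 0.0135.

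Libraries of the same group also differed among themselves with base composition. In cerebellum sham 1, 6 members lay more than 1 log2 unit above and 6 more than 1 below their mean in the other cerebellum libraries. Lhfpl3 (2.14), Ermn (2.10) and Tspan2 (2.01), whose exons have 41.5%, 38.02% and 42.2% GC, were the highest, and Gjb1 (-1.42), with 56.7% GC, the lowest. Over the 31 members the Pearson correlation of this deviation with GC content was -0.72, and over 14147 genes it was -0.62. In cerebellum sham 3 the values were 0.80 and 0.50. These correlations are across genes of 1 library and carry no test. Once the trend over length and GC was removed, 21 members rose and 6 fell in cerebellum over cortex, 21 rose and 0 fell in hippocampus over cortex, and 0 rose and 8 fell in cerebellum over hippocampus. Calls over all 15142 genes grew too, to 6926, 846 and 5887 in the same order of comparisons, against 5251, 500 and 4296 before.

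**Figure D5:**
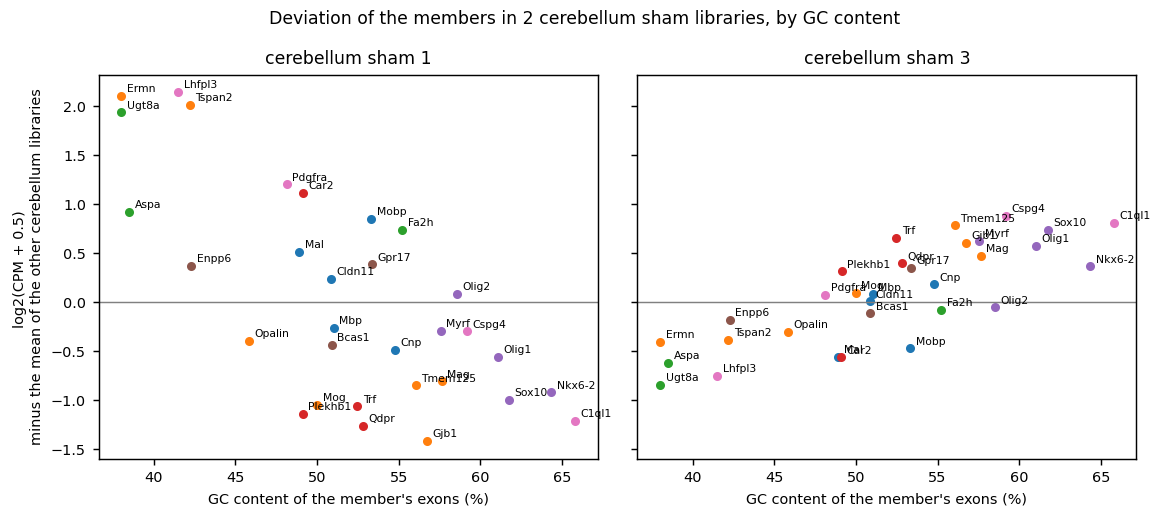
Deviation of each of the 31 members in cerebellum sham 1 and cerebellum sham 3 from the mean of the other cerebellum libraries, in log2(CPM + 0.5), against the GC content of its exons in percent. Points fall with GC content in sham 1 and rise with it in sham 3.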

How the data were processed

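Whole-number gene counts of 24 libraries were used as deposited; the submitters' processing notes name Trimmomatic, STAR, featureCounts and mm10, with no order. The sources used here state neither versions, nor the strand setting, nor the handling of multiply mapped reads, so genes sharing exon bases with another gene are uncertain. Symbols, exon lengths and GC content came from GENCODE M21. The members and lists were chosen with earlier results of these data known, and the fibroblast list after its values were seen.

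Genes were filtered by filterByExpr, scaled by TMM, and put through edgeR 4.0.16 (R 4.3.3; estimateDisp, robust glmQLFit, glmQLFTest), two-sided, adjusted by Benjamini-Hochberg over all genes of a comparison. Each tissue was fitted alone, sham tissues in 1 fit of 15 libraries, interactions in 1 fit of 24. Alternatives were DESeq2 1.42.0, voom with sample weights (limma 3.58.1), RLE scaling, other filters, a non-robust fit, the replicate number as a block, a length and GC trend, and libraries left out. Steps were tested on simulated counts. Between bulbectomy and sham they recovered 42%, 43.9% and 9.4% of 2-fold changes in hippocampus, cortex and cerebellum. The shares for 4-fold changes were 97.0%, 93.9% and 47.4%. For the interaction of hippocampus minus cortex, 8.2% of 2-fold and 62.2% of 4-fold changes were recovered. A call of 0 members therefore does not exclude 2-fold changes in any tissue, nor 4-fold changes in cerebellum or in this interaction. Log2 levels carry a pseudocount of 0.5.

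Same-numbered sham libraries of cerebellum and hippocampus deviated together, with correlations of 0.25 to 0.44 in all 5 pairs. Differently numbered libraries of these groups had -0.47 to 0.37, so the ranges overlapped. Whether same-numbered libraries are true pairs was not tested. The main fits used no pairing, and the replicate number entered as a block only in an alternative. Same-numbered sham libraries of cerebellum and cortex had 0.21, 0.26, 0.41 and 0.30 for numbers 1, 2, 3 and 4, and -0.16 for number 5. Differently numbered ones had -0.34 to 0.47. For sham hippocampus and cortex the values were 0.29, 0.26, 0.45, 0.25 and -0.10 in the same order, against -0.43 to 0.33. Same-numbered bulbectomy and sham libraries included negative correlations in hippocampus and in cortex, and those of cerebellum share 2 numbers. Named members were those called, otherwise the 4 of smallest p per tissue, a fixed panel (Mbp, Mog, Mobp, Pdgfra, Gpr17), and the 4 of largest and 4 of smallest change in cerebellum over cortex; Olig2, Tspan2, Ermn and Ugt8a in cerebellum were added after their values were seen. One gene of the wider lineage list is not reported here.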

Additional observations from a re-analysis of the deposited data

Results flagged for a closer look

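Within groups of 4 or 5 libraries, 13 of 124 sets of member values held a library far from the others by Dixon's criterion. Chance gives about 1 in 20 only for independent sets of normally spread values. The members share libraries and were taken as CPM, so the 13 cannot be judged against that rate. Cerebellum sham 1 held 7 of the 13. It was the highest of its 5 libraries for Ermn (31.6 CPM), Fa2h (30.8 CPM), Lhfpl3 (9.62 CPM), Pdgfra (17.9 CPM), Tspan2 (63.3 CPM) and Ugt8a (36.9 CPM), and the lowest for Plekhb1 (531 CPM). Cerebellum sham 2 was the highest for Opalin (17.1 CPM). Cortex sham 5 was the lowest for Cspg4 (21.5 CPM) and Sox10 (32.0 CPM). Hippocampus bulbectomy 4 was the highest for Tspan2 (22.0 CPM). Hippocampus sham 1, the shallowest library, was the highest for Car2 (157 CPM) and Mobp (496 CPM).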

How the results depend on the processing

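Over all alternatives 20 to 27 members were called in cerebellum over cortex, 6 to 14 in cerebellum over hippocampus and 15 to 22 in hippocampus over cortex, against 23, 8 and 16. In hippocampus, bulbectomy over sham, 1 member was called by DESeq2 and 1 without hippocampus sham 1 and 2, and 0 to 1 with each library left out in turn. In cortex 0 to 2 were called with each library left out, and in cerebellum over hippocampus voom called 14 (1 higher, 13 lower). Over all genes voom called 5981 in that comparison, against 4296 by edgeR. Leaving out a library gave 20 to 23 members in cerebellum over cortex, 7 to 12 in cerebellum over hippocampus and 15 to 20 in hippocampus over cortex. Directions turned only for members that had not passed. Mbp in hippocampus was 0.028 with the replicate block, 0.098 with the length and GC trend removed, 0.086 without hippocampus sham 1 and 2 and -0.19 to 0.021 with a library left out. Mog in cerebellum was 0.12 and Mobp in cerebellum -0.11 with the block, and -0.18 to 0.13 and -0.027 to 0.51 with a library left out. With a library left out, Gjb1 in cerebellum over hippocampus ran from -0.088 to 0.29 and Pdgfra in hippocampus over cortex from -0.33 to 0.079.

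With the replicate block, 0 members passed in each tissue between bulbectomy and sham, 24 in cerebellum over cortex, 11 in cerebellum over hippocampus and 19 in hippocampus over cortex. Over all genes the block called 76 in hippocampus, 13 in cortex and 0 in cerebellum, against 217, 3 and 2, and 765 in hippocampus over cortex, against 500. The block also called 6517 genes in cerebellum over cortex, against 5251, and 5304 in cerebellum over hippocampus, against 4296. Same-numbered bulbectomy and sham libraries correlated from -0.29 to 0.034 in hippocampus and -0.18 to 0.15 in cortex, and at 0.23 and 0.32 in the 2 pairs of cerebellum. Counts over all genes also moved with the tool: DESeq2 called 954, 39 and 12 in hippocampus, cortex and cerebellum, voom 307, 252 and 67, and leaving out a library 30 to 477, 1 to 573 and 0 to 36. Removing the length and GC trend moved the median of all genes to 0.16 in cerebellum over cortex and 0.14 in cerebellum over hippocampus. The share of calls that were higher in hippocampus over cortex was 317 of 500, against 693 of 1536 by voom and 432 of 846 with the trend removed, and in cerebellum over hippocampus 1953 of 4296, against 3399 of 5887 with the trend removed. Depth limits Lhfpl3, Aspa and Enpp6 most, and 2 bulbectomy libraries limit the cerebellum.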
